A study of Mus musculus with 43 samples.

Results

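Gene expression of PD798 was compared between the series in which this tumor line was sequenced, to describe which epithelial, mesenchymal and secreted genes differed between libraries that carry the same cell line name. PD798 was derived from the pancreatic tumor of a mouse of the KPCY model. This mouse carries Pdx1-cre, which makes Cre in pancreatic cells, together with p53 L/+, in which Cre removes 1 of the alleles of p53, and Rosa YFP/YFP, a yellow fluorescent reporter. By their labels, all groups share the line, the full genotype of the model and the culture medium with fetal bovine serum. The input series holds 2 libraries of RNA from the bulk line, called bulk RNA 1 and 2 here, besides single cells and pools of 10 and 100 sorted cells. The processing experiment holds 12 libraries of bulk RNA, 3 each from Mock cells (kept in staining buffer on the bench), Pre-FACS cells (banked before any sort), FACS-only cells (passed through the BD Influx sorter) and Pre-enriched cells (magnetic particles, red cell lysis buffer and the pre-enrichment device ahead of the same sorter). The label of flow treatment gives the bulk RNA the same route as the Pre-enriched cells. The sources are not uniform on whether the bulk RNA met blood. Libraries of both series were made from polyadenylated RNA with the same kit, and no source says that the libraries of a group came from separate cultures.

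Members of the comparison were the genes present in both expression tables with a mean of 5 TPM or more in either series, where TPM is the abundance of transcripts in a sample, corrected for transcript length and scaled to a fixed total. Of 13845 genes in the table of the processing experiment and 13817 in that of the input series, 12889 were shared, and 10574 of them were members. The comparison used 14 of the 43 libraries. The shared genes held 99.4% to 99.9% of the total TPM of each library. The tables were normalised separately, so that series, culture, table and library preparation cannot be told apart, and no test was run. Whether both series used the same passage and stock of the line is not given in the sources used here, and a difference of stock cannot be told apart from the rest. TPM values keep no read depth, so the depth of each library is unknown and no counting error can be given.

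Tumor cells of the pancreatic duct are epithelial. They carry simple keratins inside the cell, cadherin, claudins and Epcam at the contacts between cells, and secrete mucins and protease inhibitors. During the epithelial to mesenchymal transition, factors such as Zeb1 and Twist1 lower the junction genes, and vimentin and matrix genes rise. Pancreatic tumors also differ in how far they keep the factors of gut and pancreas identity, among them Hnf4a, Gata6 and Foxa1, and in how far they take on squamous traits such as basal keratins and the cornified envelope.

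The 2 bulk RNA libraries resembled each other more than they resembled the 12 libraries of the processing experiment. The 12 libraries were likewise closer to each other than to the bulk RNA. This did not extend to all pools of the input series, which are described below. Pearson's r of log2(TPM + 1) across the 10574 genes, which are not independent replicates, was 0.994 for the pair of bulk RNA libraries and 0.988 to 0.993 over the 66 pairs of the processing experiment. Between the bulk RNA and the 12 libraries it was 0.801 to 0.812. The median r of the bulk RNA was 0.804 with Mock, 0.805 with Pre-FACS, 0.805 with FACS-only and 0.806 with Pre-enriched libraries, so that the libraries with the same flow treatment label as the bulk RNA were not set apart from the others. The libraries labelled PD798 of the 2 series were therefore described as separate sets throughout.

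The difference of a gene was taken as its mean log2(TPM + 1) in the bulk RNA minus the mean over the 12 libraries. A positive value means higher in the bulk RNA. A gene was called when its difference was 2 or more in size, which is a 4-fold change on this scale, and when both bulk RNA values lay outside the range of all 12 libraries. By this rule 399 genes (3.77%) were called higher and 430 (4.07%) lower in the bulk RNA. With a mean of 5 TPM required in both series, 154 were called higher and 182 lower. Many called genes thus passed the filter only through the series in which they were high. At a difference of 1, 948 (8.97%) were higher and 1274 (12%) lower. The median difference over all members was -0.06, with quartiles of -0.53 and 0.36. The median size of a difference was 0.447, against 0.0759 between the bulk RNA libraries and a median range of 0.161 among the means of the 4 conditions. Just inside the limit lay Eif4g3 (2.0014), Plcg2 (2.0037), Tspan13 (-2.0001) and Snord47 (-2.0012), and just outside it Jag2 (1.9959), Tubb2a (1.9940), Mlph (-1.9976) and Marcksl1-ps4 (-1.9928).

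**Figure D1:**
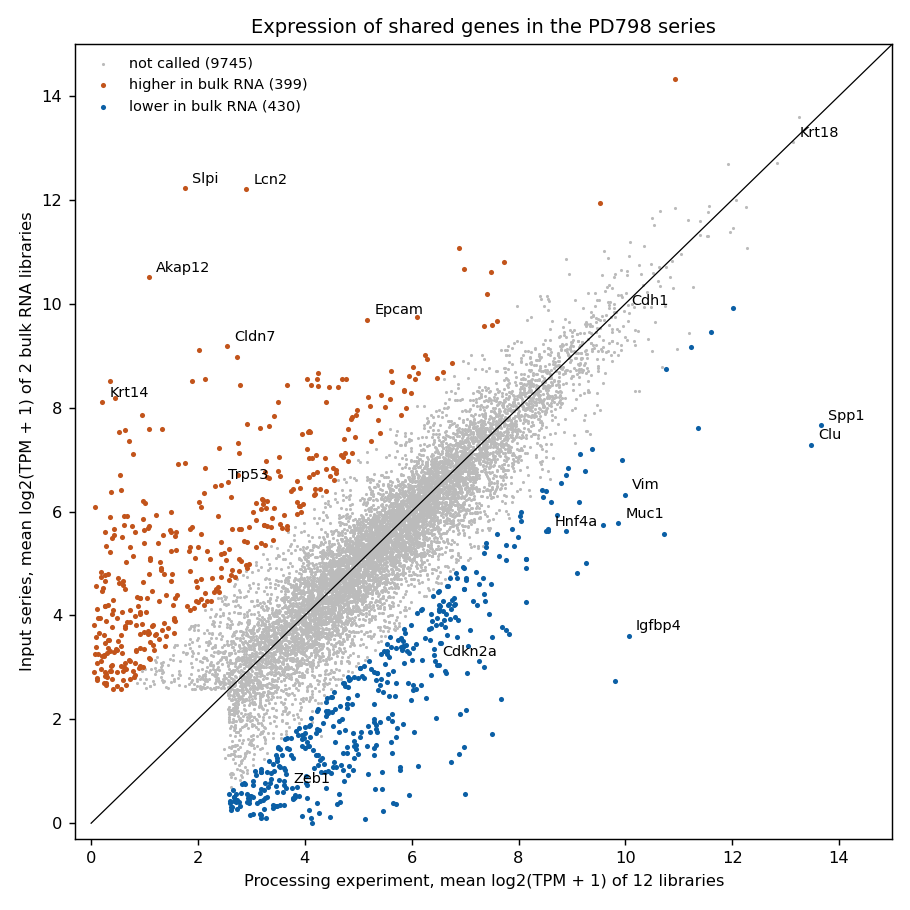
Mean log2(TPM + 1) of each of the 10574 genes over the 12 libraries of the processing experiment (horizontal axis) and over the 2 bulk RNA libraries of the input series (vertical axis). Orange points are the 399 genes called higher and blue points the 430 called lower in bulk RNA, and the line marks equal values. Krt18 and Cdh1 lie on the line, while Slpi, Lcn2 and Akap12 lie far above it and Spp1, Clu and Igfbp4 far below.

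The genes of largest positive difference were low in every library of the processing experiment and abundant in the bulk RNA. Slpi, a secreted inhibitor of leukocyte elastase (chr2:164354070-164389095, minus strand, in the GENCODE annotation of GRCm38, as for all gene spans given here), was at 4778 and 4793 TPM in the bulk RNA and at 1.69 to 3.37 TPM (median 2.27) in the 12 libraries, a difference of 10.47. Lcn2, a secreted protein that binds bacterial iron carriers (chr2:32384633-32388252, minus strand), was at 4743 and 4685 TPM against 4.75 to 8.64 TPM (median 6.53), a difference of 9.30. Akap12, an anchoring protein for protein kinase A, was at 1459.5 and 1448 TPM against 0.601 to 1.999 TPM (median 1.09), a difference of 9.42. In all 3 genes the lowest bulk RNA value was far above the highest of the 12, and the bulk RNA pair was nearly equal.

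The other 7 of the 10 genes furthest up were Kcnk1, Krt14, Dynap, Tgm1, Gpx2, Gsta3 and Csf3. Kcnk1, a potassium channel, was at 359 and 374 TPM against 0 to 1.301 TPM (median 0.1699), and Dynap at 297 and 284 TPM against 0 to 1.19 TPM (median 0.328). Tgm1, the transglutaminase that cross-links the cornified envelope of squamous cells, was at 546 and 556 TPM against 1.55 to 4.45 TPM (median 3.16), a difference of 7.08. Gpx2, a glutathione peroxidase of epithelia, was at 177 and 193 TPM against 0 to 1.14 TPM (median 0.369), a difference of 7.01. Of these 7 genes, Kcnk1, Krt14, Dynap, Gpx2 and Gsta3 had a lowest value of 0 among the 12 libraries.

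Of the genes furthest down, several were among the most abundant of the processing experiment. Spp1, which encodes the secreted phosphoprotein osteopontin (chr5:104435118-104441050, plus strand), was at 212 and 191 TPM in the bulk RNA and at 12042 to 13609.7 TPM (median 13163) in the 12 libraries, a difference of -6.01. Clu, which encodes the secreted chaperone clusterin (chr14:65968483-65981547, plus strand), was at 152 and 158 TPM against 10675 to 12464 TPM (median 11547), a difference of -6.19. Igfbp4, which binds insulin-like growth factors (chr11:99041244-99054392, plus strand), was at 10.6 and 11.9 TPM against 959.9 to 1225 TPM (median 1074), a difference of -6.45. These genes thus stayed detectable in the bulk RNA, far below every library of the processing experiment.

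The other 7 of the 10 genes furthest down were 8430408G22Rik (-7.07), Vcam1, Cfi, Sult1c2, Cdhr2, Anxa10 and Dhrs3. Vcam1, an adhesion molecule for leukocytes, was at 0.651 and 0.322 TPM against 106 to 152 TPM (median 129), a difference of -6.43. Cfi, the complement factor I protease, was at 2.67 and 1.98 TPM against 167 to 203 TPM (median 179). Sult1c2, a sulfotransferase, was at 1.51 and 1.495 TPM against 92.6 to 134 TPM (median 118), and Dhrs3, which reduces retinal, at 0.308 and 0.609 TPM against 52.03 to 69.04 TPM (median 60.7). Cdhr2, a protocadherin of the intestinal brush border, was at 1.14 and 1.39 TPM against 98.1 to 111 TPM (median 105).

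The simple keratins that mark ductal cells were high in both sets and were not called. Krt18 was at 8779.7 and 8889.7 TPM in the bulk RNA and at 8377 to 9896 TPM (median 8983) in the 12 libraries, so that the sets overlapped. Krt8, its partner in the same filaments, was at 6592 and 6765 TPM against 6465 to 8262 TPM (median 7400.0), and Krt7 at 4037 and 4080.0 TPM against 4089 to 4495 TPM (median 4340.2). The differences of these 3 genes were -0.02, -0.14 and -0.09, and all 3 were above 0 after quantile normalisation. Krt19 was higher in the bulk RNA, at 6471 and 6665 TPM against 3682 to 4082 TPM (median 3892), with a difference of 0.76.

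Of the 8 keratins among the members, 1 (12.5%) was called in each direction, against 3.77% higher and 4.07% lower over all members. Krt14, the keratin of basal cells of stratified epithelia (chr11:100203162-100207548, minus strand), was at 282 and 267 TPM in the bulk RNA and at 0 to 0.649 TPM (median 0.04002) in the 12 libraries, a difference of 7.90. Krt20, a keratin of intestinal and gastric surface cells, was at 68.1 and 76.3 TPM against 525 to 599 TPM (median 565), a difference of -2.95. Krt14 passed the filter only through the bulk RNA. The median difference of the keratins was 0.10.

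E-cadherin, which holds epithelial cells together, was about equal in both sets. Its gene Cdh1 (chr8:106603351-106670246, plus strand) was at 939 and 929 TPM in the bulk RNA and at 976 to 1057 TPM (median 1006) in the 12 libraries, a difference of -0.11. The other junction genes were split. Of 33 junction genes, 8 (24.2%) were called higher and 1 (3.03%) lower, against 3.77% and 4.07% over all members. The median difference was 0.58, against -0.06 over all members.

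Cldn7, Epcam, Cldn3 and Cldn4 had the largest differences among the junction genes. Cldn7, one of the claudins, which seal the tight junction (chr11:69964779-69967885, plus strand), was at 586 and 570.0 TPM in the bulk RNA and at 2.78 to 7.65 TPM (median 4.74) in the 12 libraries, a difference of 6.63. Cldn3 was at 361 and 388 TPM against 13.02 to 18.2 TPM (median 15.04), a difference of 4.52, and Cldn4 at 138 and 141 TPM against 3.39 to 8.73 TPM (median 6.28), a difference of 4.37. Cldn2, a claudin that lets cations pass, went the other way, at 78.4 and 75.6 TPM against 316 to 399.6 TPM (median 350.5), a difference of -2.17.

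Epcam, a surface adhesion protein by which epithelial tumor cells are commonly captured (chr17:87635979-87651129, plus strand), was at 811 and 842 TPM in the bulk RNA and at 32.1 to 38.9 TPM (median 35.03) in the 12 libraries, a difference of 4.52. The desmosome genes Pkp3 (3.04) and Dsc2 (2.18), Ppl (2.92), which encodes periplakin of the cornified envelope, and Ocln (2.21), which encodes occludin of the tight junction, were also called higher. The catenin genes were not called. Ctnnb1 was at 625 and 628 TPM against 925 to 1107 TPM (median 1054), with a difference of -0.73, and Ctnna1 at 698 and 694 TPM against 538 to 618 TPM (median 597), with a difference of 0.23.

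**Figure D2:**
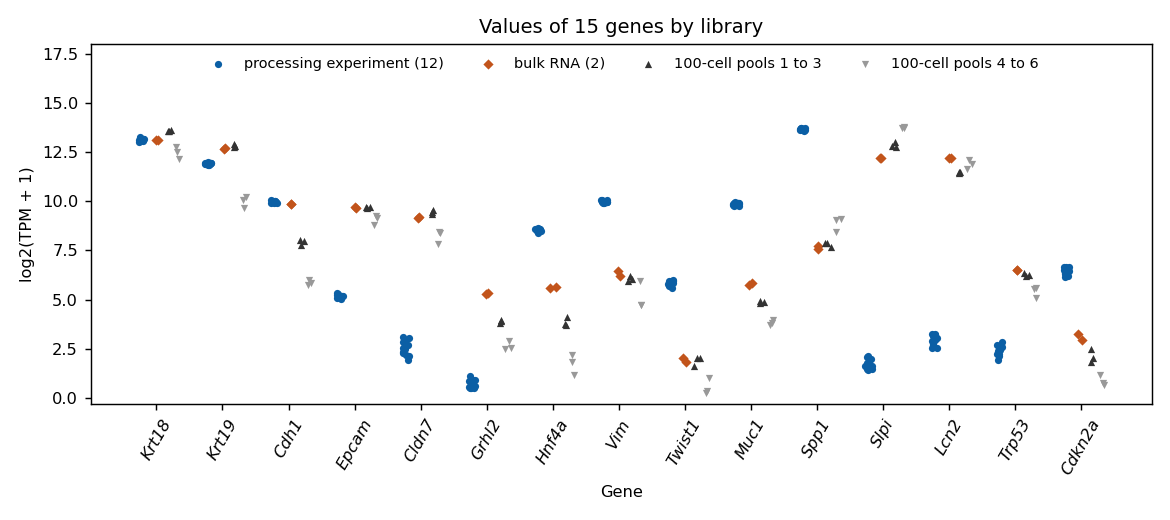
Values of 15 genes in each library as log2(TPM + 1). Blue circles are the 12 libraries of the processing experiment, orange diamonds the 2 bulk RNA libraries, and dark and light triangles the pools of 100 cells numbered 1 to 3 and 4 to 6. The symbols of a set sit close together for most genes, and the sets are apart for Epcam, Cldn7, Spp1, Slpi and Lcn2, but overlap for Krt18 in the bulk RNA and the 12 libraries.

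The promoters of these genes were searched for CACCTG, the E-box to which Zeb1 and Snail family proteins bind, on both strands (CAGGTG is the same word on the other strand). The search used RefSeq windows on GRCm38.p6 from 250 bases before to 50 bases after each gene's start. The word was 1 of 12 motifs searched and was chosen after their shares were seen. It lay in the window of 22.6% of 27025 genes with a window, 20.5% of 8132 members, 34.6% of 292 genes called higher and 25.5% of 294 called lower. All 5 junction genes called higher that had a window held it, among them Cldn3, where it lies after the start, as did 6 of 13 other junction genes. A match is only a description of these letters. The stretches before the start that hold it are shown for Cldn4 and Epcam, which were higher in the bulk RNA, and for Muc1, which was lower, each read 5′ to 3′ on the strand of the gene with the E-box in capitals.
Cldn4 (chr5:134946935-134946988, minus strand): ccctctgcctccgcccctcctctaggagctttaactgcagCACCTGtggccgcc
Epcam (chr17:87635752-87635978, plus strand): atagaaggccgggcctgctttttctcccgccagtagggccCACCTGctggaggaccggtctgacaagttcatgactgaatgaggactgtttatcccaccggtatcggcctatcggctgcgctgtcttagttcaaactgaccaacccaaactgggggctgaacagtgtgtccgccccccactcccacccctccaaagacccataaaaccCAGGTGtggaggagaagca
Muc1 (chr3:89228806-89229031, plus strand): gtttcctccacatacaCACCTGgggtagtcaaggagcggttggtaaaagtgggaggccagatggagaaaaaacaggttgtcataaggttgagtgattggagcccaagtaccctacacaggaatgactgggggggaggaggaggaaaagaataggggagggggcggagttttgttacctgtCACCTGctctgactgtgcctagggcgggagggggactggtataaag
Epcam and Muc1 each held 2 E-boxes and Cldn4 held 1, so that the word was present before genes that differed in opposite directions.

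Among the other motifs, the share in genes called higher and in genes called lower was 9.25% and 12.2% for the NF-kB decamer, 12.7% and 10.2% for the p53 decamer, 12.7% and 8.50% for the AP-1 word TGANTCA, and 18.5% and 15.3% for the antioxidant response word TGACNNNGC. Over all members these shares were 6.35%, 8.03%, 6.07% and 17.2%. The GATA word AGATAA was in 10.6% and 9.52% of the genes called higher and lower and in 7.07% of members. Words for Grainyhead (AACCGGTT and AACNGGTT), Hnf4 (CAAAGTCCA) and the sterol response (TCACNCCAC) were each in under 4% of both sets of called genes. The Hnf1 palindrome was in 0 called genes. A part of it was in 5 of 294 genes called lower (1.70%), 0 of 292 called higher and 22 of 8132 members (0.271%).

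Regulators of epithelial identity were called higher in the bulk RNA for 7 of 16 genes (43.8%, against 3.77% over all members) and lower for 1, with a median difference of 1.80. St14, Grhl2, Ovol1 and Ovol2 were under 5 TPM in all 12 libraries, and Grhl1 was at 2.07 to 5.80 TPM there. These genes passed the filter only through the bulk RNA. The share thus rests largely on genes admitted by the set in which they were high. St14, which encodes the membrane protease matriptase (chr9:31089402-31131853, minus strand), was at 192 and 189.9 TPM in the bulk RNA and at 0.686 to 1.82 TPM (median 0.994) in the 12 libraries, a difference of 6.50. Spint1, its inhibitor, was at 195 and 202 TPM against 6.57 to 12.01 TPM (median 8.68), a difference of 4.31. Grhl2, a transcription factor that maintains junction genes (chr15:37233036-37363569, plus strand), was at 38.6 and 39.03 TPM against 0.414 to 1.17 TPM (median 0.637), a difference of 4.58. The protease, its inhibitor and this factor were thus near or below 12 TPM in every library of the processing experiment and far above that in both bulk RNA libraries.

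Ovol2 (3.46) and Ovol1 (2.66), which repress mesenchymal genes, Prss8 (2.66), a protease that matriptase activates, and Grhl1 (2.17) were also called higher. Elf3, an epithelial Ets factor, was called lower, at 58.4 and 60.8 TPM against 239.9 to 276 TPM (median 262), a difference of -2.10. Spint2, a second inhibitor of such proteases, was the most abundant regulator that was not called, at 1024 and 1059 TPM against 768 to 892 TPM (median 814).

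Transcription factors of the endodermal and pancreatic lineage were lower in the bulk RNA. Of 14 such genes, 9 (64.3%, against 4.07% over all members) were called lower and none higher, the median difference was -2.48, and 1 gene had a difference above 0. Some of those called, such as Gata5 and Onecut2, were under 5 TPM in both bulk RNA libraries and passed the filter only through the 12 libraries. Foxa1 was at 12.5 and 11.9 TPM in the bulk RNA and at 120.1 to 149 TPM (median 136) in the 12 libraries, a difference of -3.37. Gata5, a GATA factor of the endoderm, was at 3.02 and 2.32 TPM against 30.1 to 42.8 TPM (median 35.1), a difference of -3.32.

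Hes1, a target of Notch signalling (-2.94), Hnf4a (-2.93), Gata4 (-2.72), Foxa3 (-2.68), Onecut2 (-2.29) and Gata6 (-2.21) were also called. Hnf4a, a nuclear receptor of gut and liver cells (chr2:163506808-163572910, plus strand), remained at 49.4 and 47.2 TPM in the bulk RNA against 338 to 405 TPM (median 378) in the 12 libraries. Pdx1, which patterns the pancreas and whose promoter drives the Cre of this mouse, was at 29.2 and 23.8 TPM against 65.3 to 91.9 TPM (median 76.6), with a difference of -1.51 that did not reach the limit. Sox9, the factor of ductal cells, differed little, at 102 and 111 TPM against 105 to 143 TPM (median 122), and Sox4 was the gene above 0, at 405 and 421 TPM against 207 to 271 TPM (median 246).

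**Figure D3:**
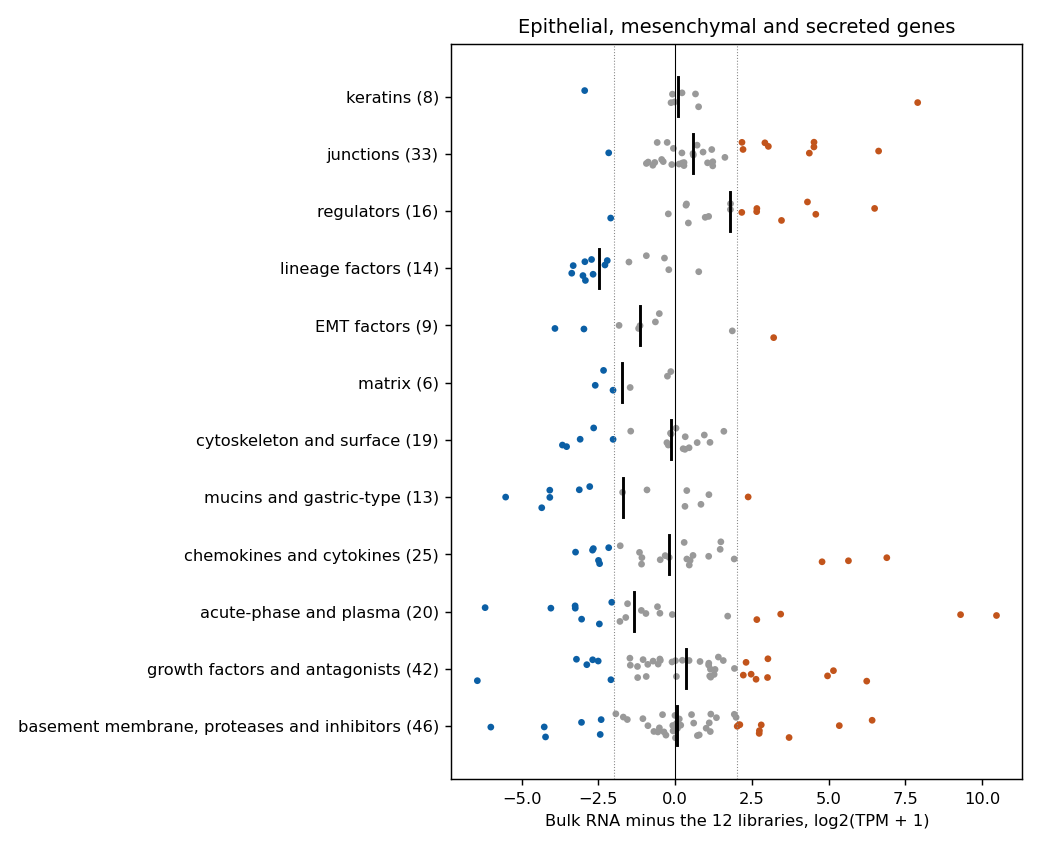
Difference between the bulk RNA and the 12 libraries, in log2(TPM + 1), for each gene of the 12 epithelial, mesenchymal and secreted lists, with the number of members in brackets. Each point is a gene, orange where called higher and blue where called lower, black bars are medians and dotted lines mark the limit of 2. Lineage factors lie mostly left of the limit, with a median of -2.48, and regulators mostly right of 0, with a median of 1.80.

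Of the 71 epithelial genes in all, 16 were called higher and 12 lower, or 22.5% and 16.9%, with a median difference of 0.29. The direction thus depended on the kind of epithelial gene, with lower values for lineage factors and higher values for many junction genes and regulators. Some called regulators and lineage factors passed the filter only through the set in which they were high. With a mean of 5 TPM required in both series, the median over the epithelial genes was 0.23.

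Mesenchymal genes were lower in the bulk RNA for 10 of 34 members and higher for 1, which is 29.4% and 2.94%, against 4.07% and 3.77% over all members. The median difference was -0.39, and -0.15 when a mean of 5 TPM was required in both series, which leaves out genes such as Zeb1 and Sparc that passed the filter through the 12 libraries. Vim, which encodes the intermediate filament vimentin (chr2:13573927-13582826, plus strand), was at 72.99 and 85.4 TPM in the bulk RNA and at 960.4 to 1085 TPM (median 1015) in the 12 libraries, a difference of -3.67. Twist1 (chr12:33957671-33959829, plus strand) was at 3.05 and 2.52 TPM against 46.99 to 62.5 TPM (median 56.9), a difference of -3.92. Zeb1, which represses Cdh1 and other junction genes, was at 0.667 and 0.519 TPM against 9.46 to 15.3 TPM (median 10.9), a difference of -2.97.

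Among the 9 factors of the transition, Twist1 and Zeb1 were called lower and Foxc1 higher. This is 22.2% lower and 11.1% higher, against 4.07% and 3.77% over all members. All 3 passed the filter through 1 set only. Foxc1 was at 15.3 and 12.1 TPM against 0.0672 to 1.25 TPM (median 0.574), a difference of 3.21. Snai2, which encodes Slug, was at 21.3 and 21.1 TPM against 23.4 to 43.5 TPM (median 34.5), with a difference of -0.64, and Hmga2, a chromatin protein of fetal and tumor cells, at 155 and 138 TPM against 33.04 to 44.2 TPM (median 39.3), with a difference of 1.86. The median difference over the 9 factors was -1.15.

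Matrix genes of mesenchymal cells included 6 members, of which 3 (50%, against 4.07% over all members) were called lower and none higher, with a median difference of -1.75. Sparc, a matrix protein that binds collagen, was at 1.26 and 0.829 TPM against 9.20004 to 13.8 TPM (median 11.2), a difference of -2.61. Loxl2, which cross-links collagen (-2.33), and Col8a1 (-2.03) were the other genes called. All 3 were under 5 TPM in both bulk RNA libraries and passed the filter only through the 12 libraries. The share thus rests on genes admitted by the set in which they were high. Fn1, which encodes fibronectin, was at 133 and 131 TPM against 315 to 424 TPM (median 362), with a difference of -1.47 that did not reach the limit.

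The cytoskeletal and surface genes were mixed, with 5 of 19 (26.3%, against 4.07% over all members) called lower, none higher and a median of -0.13. S100a4, a calcium-binding protein of motile cells, was at 15.5 and 21.9 TPM in the bulk RNA and at 145 to 212 TPM (median 160.0) in the 12 libraries, a difference of -3.10. Itgb3, an integrin subunit, was at 3.06 and 3.03 TPM against 37.5 to 52.96 TPM (median 46.3), a difference of -3.54. Itgb3 passed the filter only through the 12 libraries. Nt5e (-2.66) and Lgals1 (-2.02) were also lower. Cd44, a receptor for hyaluronan, pointed the other way without being called, at 347 and 349 TPM against 106 to 132 TPM (median 115), and the N-cadherin gene Cdh2 was at 56.02 and 54.1 TPM against 55.4 to 68.4 TPM (median 60.05).

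Secreted genes differed in both directions, and their medians hide large differences. Of 146 secreted genes, 26 were called higher and 31 lower, or 17.8% and 21.2%, against the 3.77% and 4.07% over all members, while the median difference was -0.05, with a sign that turned under other settings (0.0043 after a median shift, 0.024 with 5 TPM required in both series). Slpi, Lcn2, Spp1, Clu and Igfbp4, given above, belong to these lists. The lists also hold some genes whose products are not secreted, such as Muc1, Vsig1 and Creb3l1, and these are part of the counts. In each of the secreted lists below, some called genes passed the filter only through the set in which they were high. Slpi and Serpine2 did so through the bulk RNA, and Anxa10, Apoe and Ccdc80 through the 12 libraries.

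Mucins and gastric-type genes were mostly lower in the bulk RNA, with a median of -1.71. Of 13 genes, 6 (46.2%) were called lower and 1 (7.69%) higher, against 4.07% and 3.77% over all members. Muc1, the membrane mucin of ductal cells (chr3:89229057-89233381, plus strand), was at 55.98 and 51.8 TPM in the bulk RNA and at 854 to 987 TPM (median 937) in the 12 libraries, a difference of -4.09. Anxa10, an annexin of gastric epithelium, was at 2.08 and 1.47 TPM against 118 to 136 TPM (median 125), a difference of -5.52, and Vsig1, a gastric adhesion protein, at 6.395 and 7.81 TPM against 150.0 to 179.6 TPM (median 163), a difference of -4.35.

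Clca1 (-4.09), the trefoil factor gene Tff1 (-3.12) and the gastric protease gene Ctse (-2.78) were lower as well. Creb3l1, a membrane-bound transcription factor of secretory cells, was the gene called higher, at 10.7 and 9.65 TPM against 0.347 to 1.702 TPM (median 1.39). Gkn2, another gastric product, was not called, at 175 and 184 TPM against 57.2 to 111 TPM (median 86.6), nor was the tetraspanin gene Tspan8, at 187 and 187 TPM against 585 to 643 TPM (median 613).

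Among 25 chemokines and cytokines, 3 (12%) were called higher and 6 (24%) lower, against 3.77% and 4.07% over all members. The median difference was -0.20. Csf3 and Il23a were under 5 TPM in all 12 libraries. Cx3cl1, Csf2, Cxcl10 and Cxcl15, among those called lower, were under 5 TPM in both bulk RNA libraries. Most of these calls are thus of genes that passed the filter only through the set in which they were high. Csf3, the granulocyte colony-stimulating factor, was at 232 and 228 TPM in the bulk RNA and at 0.0967 to 2.37 TPM (median 0.948) in the 12 libraries, a difference of 6.89. Cxcl2, a neutrophil chemokine, was at 348 and 339.5 TPM against 2.95 to 14.1 TPM (median 5.36), a difference of 5.65, and Il23a, a subunit of interleukin 23, at 50.3 and 45.7 TPM against 0 to 1.998 TPM (median 1.03), a difference of 4.79. Cxcl1, another neutrophil chemokine, was not called, at 1060.0 and 1062 TPM against 295 to 545 TPM (median 348).

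The 3 chemokines and cytokines furthest down were Cx3cl1, Ccl20 and Csf2. Cx3cl1, a membrane-bound chemokine, was at 4.14 and 4.79 TPM against 45.2 to 56.7 TPM (median 51.1), a difference of -3.25. Ccl20 was at 14.5 and 13.7 TPM against 81.6 to 123 TPM (median 94.8), and Csf2, which supports granulocytes and macrophages, at 2.68 and 3.18 TPM against 18.03 to 32.8 TPM (median 23.8), differences of -2.69 and -2.67. The colony-stimulating factors Csf3 and Csf2 thus differed in opposite directions.

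Acute-phase and plasma proteins had a median difference of -1.33. Of 20 genes, 4 (20%) were called higher and 7 (35%) lower, against 3.77% and 4.07% over all members. After Slpi and Lcn2, the gene called higher with the largest difference was C3, the central complement component, at 185 and 185 TPM against 13.1 to 19.3 TPM (median 16.005), a difference of 3.44. Apoe was at 2.44 and 1.55 TPM against 42.8 to 53.4 TPM (median 48.8) and Apob at 11.2 and 10.7 TPM against 95.98 to 153 TPM (median 110.1), differences of -4.05 and -3.26, both being apolipoproteins. Rbp4, the carrier of retinol, was at 47.98 and 49.2 TPM against 436 to 533 TPM (median 471), a difference of -3.26. The list thus held the gene of largest positive difference of all members, while its median was below 0.

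Growth factors and their antagonists were split, with a median of 0.34. Of 42 genes, 9 (21.4%) were called higher and 6 (14.3%) lower, against 3.77% and 4.07% over all members. Wnt7b, a Wnt ligand of epithelia, was at 500.2 and 503 TPM in the bulk RNA and at 4.71 to 6.81 TPM (median 5.67) in the 12 libraries, a difference of 6.24. Edn1, which encodes endothelin 1, was at 74.3 and 66.7 TPM against 0 to 1.86 TPM (median 1.12), and Inhbb, a subunit of activin B, at 52.5 and 51.4 TPM against 0.276 to 1.29 TPM (median 0.706), differences of 5.16 and 4.96. In the other direction, Fgf1 was at 5.66 and 5.39 TPM against 51.6 to 68.9 TPM (median 60.7) and Angptl4 at 21.8 and 24.9 TPM against 156 to 194 TPM (median 181), differences of -3.22 and -2.88. The Egf family ligand Areg was not called, at 273 and 250.1 TPM against 55.6 to 80.9 TPM (median 68.1).

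Of 46 genes of the basement membrane and of extracellular proteases and inhibitors, 9 (19.6%) were called higher and 6 (13.0%) lower. Over all members 3.77% and 4.07% were, and the median of the list was 0.06. Serpine2, an inhibitor of thrombin and plasminogen activators, was at 377 and 371 TPM against 1.899 to 4.72 TPM (median 3.5998), a difference of 6.42. Lama3, a chain of laminin 332, was at 46.7 and 49.1 TPM against 0.0124 to 0.533 TPM (median 0.185), a difference of 5.35, and Lamb3, another chain of the same laminin, at 434 and 443 TPM against 56.9 to 74.96 TPM (median 63.9), a difference of 2.74. Htra1, a secreted serine protease, had a difference of 3.71. Below Spp1 followed Lgals3bp, at 27.6 and 27.2 TPM against 533 to 555 TPM (median 547), and Ccdc80, at 0.227 and 0.375 TPM against 19.2 to 27.9 TPM (median 22.2), differences of -4.27 and -4.22.

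The tumor suppressor genes Trp53 and Cdkn2a differed in opposite directions. Trp53 (chr11:69580359-69591873, plus strand), of which the mouse carries 1 allele that Cre removes, was at 91.2 and 89.998 TPM in the bulk RNA and at 2.799 to 6.22 TPM (median 4.46) in the 12 libraries, a difference of 4.09. Cdkn2a, which encodes p16 and p19Arf (chr4:89274471-89294653, minus strand), was at 6.82 and 8.68 TPM against 71.02 to 101 TPM (median 84.1), a difference of -3.31. Smad4, which carries signals of the Tgf-beta family, was at 164 and 167 TPM against 132 to 160.4 TPM (median 149.7). Gene totals do not tell a deleted allele's transcripts from normal ones.

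Of 20 genes listed as p53 targets, a list that also holds Trp53 and Cdkn2a, 7 (35%) were called higher and 1 (5%) lower. Over all members 3.77% and 4.07% were. Trp53 was 1 of the 7, and Cdkn2a was the gene called lower. Eda2r, Zmat3 and Fas, also among the 7, were under 5 TPM in all 12 libraries. These genes and Trp53 passed the filter only through the bulk RNA, so the share rests in part on genes admitted by the set in which they were high. Of the 20 genes 18 were above 0, and the median difference was 1.42. Eda2r, a death receptor, was at 51.4 and 48.5 TPM in the bulk RNA and at 0.111 to 0.785 TPM (median 0.237) in the 12 libraries, a difference of 5.25. Ccng1 was at 872 and 848 TPM against 56.9 to 76.3 TPM (median 67.5), a difference of 3.66. Cdkn1a, which encodes the cell cycle inhibitor p21, was at 365 and 379 TPM against 60.6 to 75.1 TPM (median 63.6), a difference of 2.48. Mdm2, which targets p53 for degradation, was just short of the limit, at 366 and 381 TPM against 84.9 to 103 TPM (median 96.4), a difference of 1.95.

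**Figure D4:**
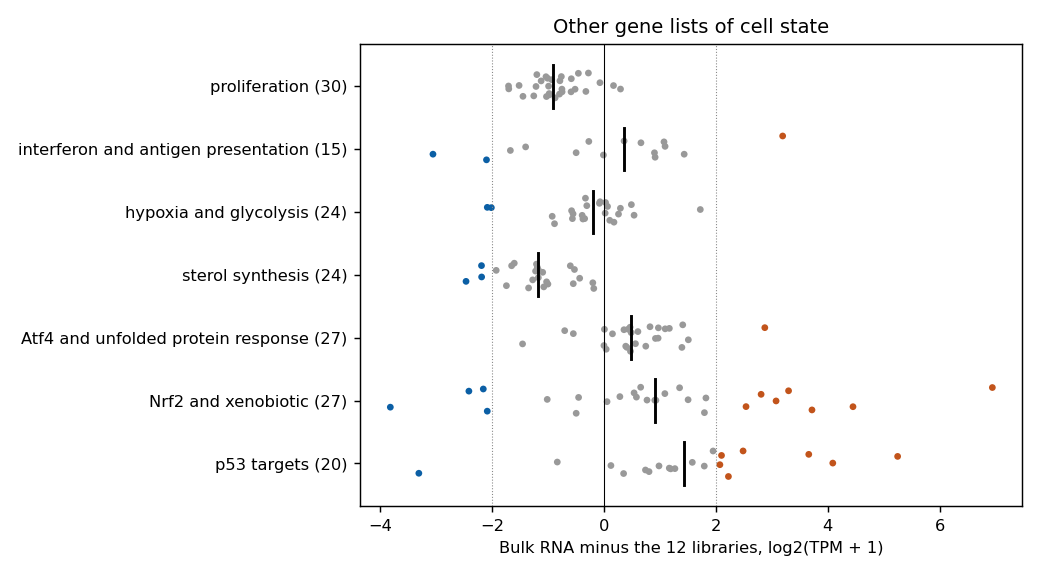
Difference between the bulk RNA and the 12 libraries, in log2(TPM + 1), for each gene of 7 further lists of cell state, with the number of members in brackets. Each point is a gene, orange where called higher and blue where called lower, black bars are medians and dotted lines mark the limit of 2. All 24 sterol synthesis genes lie left of 0, and 18 of 20 genes listed as p53 targets lie right of it.

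All 24 genes of sterol synthesis had a difference below 0, with a median of -1.18. At the limit of 2, 3 (12.5%) were called lower, against 4.07% of all members. At that of 1, 18 were lower, where 12% of all members were. Insig1, which holds back the sterol sensor, was at 105 and 113 TPM against 509 to 733 TPM (median 597), and Cyp51, an enzyme of the pathway, at 149 and 142 TPM against 627 to 733 TPM (median 665), differences of -2.47 and -2.19. Proliferation genes had a median of -0.91, with none of 30 past a difference of 2 and 11 lower past 1, against the same 12%. Cdc20, an activator of the anaphase complex, was at 91.5 and 96.998 TPM against 244 to 306 TPM (median 271), and Mcm6, a subunit of the replicative helicase, at 154 and 145 TPM against 265 to 321 TPM (median 298).

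Genes of Nrf2 and xenobiotic metabolism were called higher for 7 of 27 (25.9%) and lower for 4 (14.8%), with a median of 0.91. Over all members 3.77% and 4.07% were called. Of the called genes, Gsta3, Gsta2 and Cyp1a1 were under 5 TPM in all 12 libraries, and Adh7 in both bulk RNA libraries. These passed the filter only through the set in which they were high. Gsta3, a glutathione transferase, was at 182 and 195 TPM against 0 to 1.62 TPM (median 0.618) and Gsta1 at 188 and 201 TPM against 5.402 to 13.5 TPM (median 7.25), differences of 6.94 and 4.45. Near-identical copies in this family make the division of reads among them uncertain. Gclc, the catalytic subunit of the rate-limiting enzyme of glutathione synthesis, was at 1799.7 and 1794 TPM against 199.6 to 226 TPM (median 213), a difference of 3.07. Adh7 (-3.82) and Cyp2s1 (-2.42) had the largest differences in the other direction.

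The remaining lists are given beside the 3.77% higher and 4.07% lower of all members. Of the Atf4 and unfolded protein response genes 3.70% were called higher, close to that share, and none lower. Of the interferon and antigen presentation genes 6.67% were higher and 13.3% lower. Of the hypoxia and glycolysis genes 8.33% were lower. Each of these shares is of 1 or 2 genes. Among 27 genes of Atf4 and the unfolded protein response, only Slc7a11, the cystine transporter, was called, at 366 and 356 TPM against 35.4 to 61.3 TPM (median 49.4), and the median was 0.48. Among 15 interferon and antigen presentation genes, Tap2 (3.19) was higher and Oasl1 (-3.06) and Ifit2 (-2.10) were lower, with a median of 0.36. Each of these called genes passed the filter only through the set in which it was high. Among 24 genes of hypoxia and glycolysis, Ankrd37 (-2.09) and Hk2 (-2.02) were lower and none was higher, with a median of -0.20.

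Markers of other cells were sparse in the shared genes. Of 25 leukocyte markers 6 were shared, and their sum was 128 to 141 TPM in the bulk RNA and 299 to 355 TPM in the 12 libraries. Most of it was Cd14, at 124 and 138 TPM in the bulk RNA and 293 to 347 TPM (median 318) in the 12 libraries. The 4 of 17 erythroid and platelet markers that were shared summed to 1.77 to 3.86 TPM against 2.62 to 8.63 TPM. None of 17 markers of fibroblasts and endothelium was shared, and of 22 acinar and islet markers Cela1 was, at 1.75 and 1.24 TPM against 8.701 to 16.1 TPM (median 12.7). The neutrophil markers S100a8 and S100a9 were outside the shared genes, in the table of the input series, where the bulk RNA was at 37.4 to 51.0 TPM and 8.45 to 9.93 TPM, as was Ltf, which neutrophils and glandular epithelia express, at 122 to 133 TPM. The part of other cells in the differences was not tested. Y-linked genes were expressed in both sets, with Ddx3y at 41.3 and 42.5 TPM against 31.1 to 40.6 TPM (median 36.7) and Eif2s3y at 59.7 and 52.9 TPM against 27.01 to 42.8 TPM (median 37.3). Ribosomal protein genes of the large subunit summed to 20214 to 20825 TPM in the bulk RNA and 14321 to 19045 TPM in the 12 libraries.

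Similar counts were obtained against each condition of the processing experiment alone. Against Mock libraries alone 401 genes were higher and 431 lower, of which 387 and 415 were also called against all 12. Against Pre-FACS libraries the counts were 395 and 435, against FACS-only 394 and 432, and against Pre-enriched 410 and 424. The largest range among the 4 condition means of any called gene was 1.42, and the median range over called genes was 0.223.

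The pools of sorted cells in the input series were compared with the same 12 libraries, for genes called in the bulk RNA. Pools of 100 cells numbered 1 to 3 had an r of 0.912 to 0.925 with the bulk RNA, and those numbered 4 to 6 an r of 0.739 to 0.757. With the 12 libraries, pools 1 to 3 had an r of 0.745 to 0.781 and pools 4 to 6 of 0.599 to 0.653. Of the 399 genes called higher, 380 (95.2%) were above all 12 libraries in each of pools 1 to 3, against 24.0% of all members, and 247 (61.9%) in each of pools 4 to 6, against 18.99%. In all 12 pools of 10 cells 161 (40.4%) were above, against 11.1% of all members.

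Of the 430 genes called lower, 428 (99.5%) lay below all 12 libraries in each of the 6 pools of 100 cells, and 412 (95.8%) in each of the 12 pools of 10 cells. The background was high here, since 52.9% and 43.9% of all members lay below the 12 libraries in the same pools.

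Some called genes kept their side of the 12 libraries in every pool of 100 cells, and others did not. In pools 1 to 3, Slpi ranged over 7068 to 8424 TPM and Epcam over 821 to 845 TPM, whereas Spp1 ranged over 202 to 239 TPM and Muc1 over 27.2 to 29.9 TPM. In pools 4 to 6 the ranges were 13533 to 13974 TPM for Slpi, 439.9 to 607 TPM for Epcam, 345 to 554 TPM for Spp1 and 11.998 to 14.5 TPM for Muc1. These 4 genes kept in every pool of 100 cells the side of the 12 libraries that they had in the bulk RNA. Other genes called higher did not do so in pools 4 to 6. There Pkp3 was at 1.802 to 2.93 TPM and Ppl at 12.3 to 20.8 TPM, both below the 12 libraries, where they were at 6.44 to 11.3 TPM (median 8.08) and 21.3 to 33.8 TPM (median 27.7). Dsc2, at 10.3 to 14.2 TPM, overlapped with the 12 libraries, where it was at 11.1 to 18.3 TPM (median 14.4). Krt19 and Cdh1, which were not called, varied between the pools. For Krt19 the ranges were 6995 to 7712 TPM (pools 1 to 3) and 812 to 1182 TPM (pools 4 to 6), and for Cdh1 221 to 263 TPM and 51.9 to 62.4 TPM. For Grhl2 they were 13.1 to 14.5 TPM and 4.63 to 6.56 TPM, below the bulk RNA but above the 12 libraries.

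The differences were not spread evenly over the chromosomes. Positions from GENCODE on GRCm38 were found for 10193 members (96.4%), and the median difference of each chromosome was taken relative to the median of all members. These chromosomes were singled out after the values were seen. Chromosome 6 had a median of -0.49 over 484 genes, chromosome 15 of -0.43 over 422, chromosome 3 of -0.38 over 506 and chromosome 19 of -0.20 over 365, while chromosome 14 had a median of 0.28 over 334. The other 15 chromosomes lay between -0.01 and 0.14.

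Both bulk RNA libraries gave nearly the same chromosome values. The 12 libraries stayed within 0.05 of 0 on every chromosome, which follows in part from the use of their own mean as the reference. On chromosome 6, bulk RNA 1 was at -0.49 and bulk RNA 2 at -0.48. On chromosome 6, 75.4% of genes lay below the median of all members, and on chromosome 15, 75.1%. Without the genes that were called at a difference of 1, the medians were -0.31 for chromosome 6, -0.30 for chromosome 15, -0.25 for chromosome 3, -0.16 for chromosome 19 and 0.18 for chromosome 14, so that genes of small difference carried the same direction. Pools 1 to 3 of 100 cells were at -0.44 to -0.42 on chromosome 6, -0.47 to -0.42 on chromosome 15 and 0.28 to 0.32 on chromosome 14.

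Pools 4 to 6 were different in part. They were at -0.07 to 0.03 on chromosome 3, at 0.46 to 0.51 on chromosome 13 and at 0.52 to 0.62 on the X chromosome, where the bulk RNA was at 0.0077 and -0.0017. RNA values do not measure the number of gene copies, and DNA was not analysed here.

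**Figure D5:**
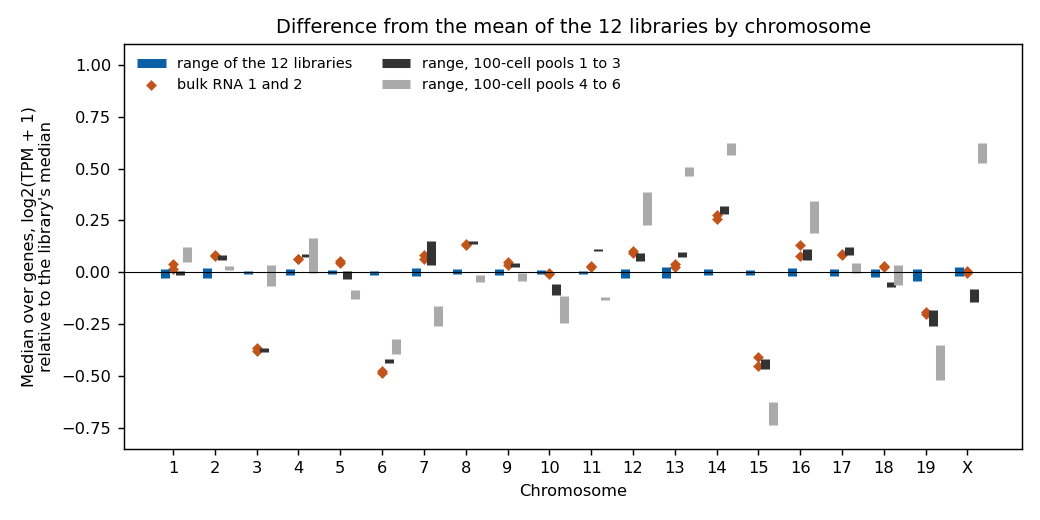
Median over the genes of each chromosome of the difference from the mean of the 12 libraries, in log2(TPM + 1) relative to the median over all members. Orange diamonds are bulk RNA 1 and 2, blue bars the range of the 12 libraries, and dark and light bars the ranges of the 100-cell pools 1 to 3 and 4 to 6. Chromosomes 3, 6 and 15 lie below -0.35 in the bulk RNA and in pools 1 to 3, and chromosome 14 lies above 0.25.

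The differences were also described by transcript length and base composition. These classes are far larger than the chromosomes singled out above, so the spreads of the medians cannot be compared. When the members were divided into 3 equal classes by transcript length or by GC content, the median difference was between -0.11 and -0.01. The share of genes called higher was 4.29%, 3.91% and 3.14% from short to long, and 2.73%, 3.32% and 5.29% from low to high GC. The share called lower was between 3.67% and 4.85%.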

How the data were processed

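RNA of PD798 was sequenced as paired ends on a NextSeq. Per the labels and the methods, the authors aligned reads to mm10 with ERCC sequences by STAR (version 2.52 in the submitters' processing notes), counted them with featureCounts, normalised them by the upper quartile and deposited TPM with effective transcript lengths, in 1 table for the processing experiment and 1 for the input series. The annotation and the rule by which genes entered a table are not given in the sources used here.

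From these TPM, log2(TPM + 1) was computed (Python 3.11.15, numpy 2.4.6, pandas 2.3.3, matplotlib 3.10.9). Members, differences and calls follow the definitions in the report. The comparison code was tested on simulated data. No statistical test was run and no p-value is given. TPM keeps no depth. Some genes and 1 allele of the mouse model are not reported here. The members and gene lists were chosen with earlier results of these data known. Named genes were the 10 called genes of largest difference in each direction, the 3 of largest difference per direction in each epithelial, mesenchymal and secreted list, the 2 per direction in each other list, 12 general markers, and abundant members that were not called. Further genes in the text, among them Trp53, Smad4, the remaining called members of short lists and genes shown beside a called relative, were added after their values were seen. Alternatives were other pseudocounts, scalings, filters, reference libraries, limits and ranks, and leaving out each library.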

Additional observations from a re-analysis of the deposited data

How the results depend on the processing

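Leaving out each library in turn gave 397 to 404 genes higher and 421 to 435 lower, and list medians of 0.28 to 0.34 (epithelial), -0.42 to -0.38 (mesenchymal) and -0.067 to -0.010 (secreted). Of 399 and 430 called genes, a pseudocount of 5 left 229 and 213, a mean of 5 TPM required in both series 154 and 182, and a difference of 3 186 and 156, while a difference of 1 gave 948 and 1274. A mean of 20 TPM gave 285 genes lower. By construction these settings admit fewer or more genes.

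The epithelial median was 0.34 after a median shift and against FACS-only libraries, and 0.23 with no filter, with 5 TPM in both series and with 20 TPM. The mesenchymal median was -0.28 with a pseudocount of 5, -0.26 with no filter, -0.27 with 1 TPM, -0.15 with 5 TPM in both series and -0.23 with 20 TPM. The secreted median, near 0, was 0.0043 after a median shift, 0.024 with 5 TPM in both series and 0.024 with 20 TPM, -0.094 with 1 TPM, -0.0026 against Mock, -0.096 against FACS-only and -0.010 without bulk RNA 1, so its sign was not fixed. The cause of these shifts was not tested. As percentile ranks, the list medians had the same sign, at 2.003, -2.03 and -0.160 points. Without bulk RNA 1 the epithelial median was 0.335. In the other alternatives the counts stayed within 1.5 times and the medians within 1 SD of the list median over the 12 libraries. Of the 829 called genes, 789 were called under each of the scalings and the pseudocount of 0.1. No paired analysis was possible because the groups share no source by replicate number and no test was run.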

Other observations

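Genes present in 1 table could not be compared, since they were not analysed in the other. The table of the input series held 928 such genes, of which 111 had a mean of 5 TPM or more in the bulk RNA and 18 of 50 TPM or more. They included a few genes of the cornified envelope and of stratified epithelia, picked after their values were seen. Shared genes of the envelope differed in both directions. Sprr1a, an envelope precursor, was lower in the bulk RNA, at 45.9 and 59.3 TPM against 690.3 to 973 TPM, a difference of -3.85. Tgm1 (7.08), Lor (6.26) and Ppl (2.92) were higher. Among the 928 genes, Cnfn, which encodes cornifelin of the cornified envelope, was at 1141 and 1156 TPM. Krt6a, a keratin of stratified epithelia, was at 415 and 416 TPM, and Sprr2d, another envelope precursor, at 100.3 to 114 TPM. The tight junction gene Cldn1 was at 363 to 367 TPM, the vesicle gene Rab25 at 173 to 179 TPM and the epithelial splicing factor gene Esrp1 at 111 to 121 TPM. Secreted products among them were Ltf (lactotransferrin) at 122 to 133 TPM, Lox (lysyl oxidase) at 110.4 to 125 TPM and Saa3 (serum amyloid A) at 115 to 120.1 TPM.

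The table of the processing experiment held 956 genes of its own, of which 64 had a mean of 5 TPM or more and 3 of 50 TPM or more. Ddc, which makes dopamine and serotonin, was at 57.5 to 80.3 TPM over the 12 libraries, Nr0b2, a nuclear receptor of liver and gut, at 23.1 to 34.1 TPM, and the gastric genes Tff2 and Gkn3 at 17.46 to 32.7 TPM and 4.73 to 12.8 TPM. These genes were chosen after their values were seen.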
